A study of Homo sapiens with 3 samples.

Results

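The genes described here are 10 parts of the switch that carries a cell from G1 into S phase. They are the kinases CDK4, CDK6 and CDK2, the D cyclins CCND1 and CCND3, the E cyclins CCNE1 and CCNE2, the pocket protein RB1 and the transcription factors E2F1 and E2F2. They were chosen by name, as the axis that the drug of the study acts on, and were read as rows of the count tables, 10 of 22499 gene symbols. All 10 were found. Their levels were followed across 4 populations of cells and across the deposited cell cycle phases, with G1 cells taken apart.

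CAMA-1 cells come from a luminal breast cancer that expresses the estrogen receptor, and ribociclib inhibits CDK4 and CDK6. Sensitive cells bore mVenus, a yellow fluorescent protein. Resistant cells, a lineage selected from the same line by months of growth in ribociclib, bore mCherry, a red one. Spheroids were plated with 2000 cells that were all sensitive, 50% of each kind or all resistant, and every spheroid received ribociclib at 1 µM for 11 days, so all populations were under the drug and no untreated library was used here. Each condition gave 1 single-cell library with 10X Genomics 3′ chemistry, in which unique molecular identifiers (UMIs) count captured RNA molecules. The 4 populations are the sensitive monoculture (3329 annotated cells), the sensitive cells of the coculture (2059), the resistant cells of the coculture (6292) and the resistant monoculture (7557). With 1 library per condition there is no replicate, cells are not replicates, and no test across samples was possible. Both coculture populations share 1 library.

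In a cycling cell, D cyclins bind CDK4 or CDK6 and the complex phosphorylates RB1, which otherwise holds E2F transcription factors inactive. Freed E2F factors switch on genes for DNA synthesis together with CCNE1, CCNE2 and E2F1 itself, and cyclin E with CDK2 then phosphorylates RB1 further. Cyclin D1 is a well-known estrogen target in luminal breast cancer cells, and loss of RB1 or high cyclin E is known to let cells bypass CDK4/6 inhibitors. RNA levels do not show kinase activity or phosphorylation.

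Promoter windows of 300 bases (250 before the start site and 50 after it) were taken from a table of RefSeq promoters (GRCh38.p14), in which 7 of the 10 genes were matched to 10 windows. CCND1, CDK2 and CCNE2 were not matched. The windows were searched on both strands for the E2F site letters TTTCCCGC, TTTCGCGC, TTTGCCGC and TTTGGCGC. Such letters were in 1164 of all 35116 promoter windows (3.31%) and in 2 of the 10 windows of the members. The RB1 window lies within the gene as RefSeq places it, far from its first base, and had no match. They were also in 15 of 34 windows (44.1%) of a set of E2F target genes, which is read further on and not named in full. The 100 bases before the start site are shown 5′ to 3′ for E2F1, E2F2 and CCNE1, the E2F-regulated members with a window, with matches in capitals.
E2F1 (chr20:33686386-33686485, minus strand): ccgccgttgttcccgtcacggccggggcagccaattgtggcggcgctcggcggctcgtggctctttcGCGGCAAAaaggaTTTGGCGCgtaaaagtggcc
E2F2 (chr1:23531234-23531333, minus strand): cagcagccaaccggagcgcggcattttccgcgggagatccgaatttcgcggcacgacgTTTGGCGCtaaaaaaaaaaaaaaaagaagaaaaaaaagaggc
CCNE1 (chr19:29811891-29811990, plus strand): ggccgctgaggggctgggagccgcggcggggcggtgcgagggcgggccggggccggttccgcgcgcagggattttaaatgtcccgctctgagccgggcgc
The E2F1 window holds matches that begin at positions -33 and -20 from the start site, which do not overlap, and the E2F2 window holds 1 that begins at -42. The CCNE1 window has none of these letters. A match describes the letters and not a bound site.

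On GRCh37, the build of the counts, CDK4 lies at chr12:58141510-58149796, CDK6 at chr7:92234235-92465887, CCND1 at chr11:69455924-69469242, CCND3 at chr6:41902672-42018095 and RB1 at chr13:48877880-49173572. E2F1 lies at chr20:32263283-32274191, E2F2 at chr1:23832930-23857725, CDK2 at chr12:56360565-56366573, CCNE1 at chr19:30302898-30315219 and CCNE2 at chr8:95891998-95908906.

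The summed UMIs of annotated cells ran from 70896822 in the sensitive coculture cells to 270891547 in the resistant monoculture, and the median cell of a population held 27622 to 35443 UMIs. The median mitochondrial share was 20.9% in the sensitive monoculture and 15.2% to 17.3% in the other populations. All 7 luminal markers were present in every population, with ESR1 at 14.2 to 20.2 counts per 1000000 UMIs (CPM). Of the defining markers of other cells, PTPRC had 0 to 2 UMIs, COL1A2 0 to 5, KRT5 0 to 1, COL1A1 256 to 651 and KRT14 43 to 345 per population. Libraries shared 7 to 17 cell barcodes. Cells called S or G2M made up 11.0% of the sensitive monoculture, 44.7% of sensitive coculture cells, 50.3% of resistant coculture cells and 50.0% of the resistant monoculture. The study states canonical markers for its phase call, and the genes behind it are taken here to be Seurat's lists. Phases were also called again in scanpy, over all libraries together, from these lists without CCNE2 and E2F8. No such call was made with both genes kept, so the change of software and the loss of these genes cannot be told apart. The new call put 86 of 2963 deposited G1 cells of the sensitive monoculture in S. In the other populations it put 104 of 1138, 380 of 3125 and 430 of 3781 there, larger shares. The part of such cells in the G1 values below was not tested.

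CCND1, which encodes cyclin D1, held most of the RNA of the 10 genes. It took 89.9% of their UMIs in the sensitive monoculture, 85.9% in the sensitive coculture cells, 86.8% in the resistant coculture cells and 87.6% in the resistant monoculture. Since 1 captured molecule gives 1 UMI whatever its length, levels are compared between genes in CPM, although capture can differ between genes. The level of CCND1 was 1786 CPM in the sensitive monoculture (exact Poisson 95% interval 1778 to 1794), 1551 (1542 to 1560) in the sensitive coculture cells, 1534 (1529 to 1540) in the resistant coculture cells and 1681 (1676 to 1686) in the resistant monoculture. By CPM it was the gene at rank 69 in the sensitive monoculture and at ranks 94 to 97 in the others. All intervals given here cover counting error only.

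CCND1 was highest in the sensitive monoculture, the population with the fewest cells in S or G2M, and both coculture populations were below their monoculture. The ratio of coculture to monoculture was 0.868 (0.862 to 0.875) in sensitive cells and 0.913 (0.909 to 0.917) in resistant cells. Within G1 cells it was 0.881 and 0.919. Between the monocultures the resistant over sensitive ratio was 0.941, a direction that scaling by TMM factors turned (log2 -0.09 to 0.03), and within the coculture it was 0.989, which TMM scaling put at level (log2 0.0012). None of these ratios was past 1.5-fold.

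CCND3, another D cyclin, was far lower. Its level was 32.9 (31.7 to 34.0) CPM in the sensitive monoculture, 36.9 (35.5 to 38.4) in the sensitive coculture cells, 34.5 (33.6 to 35.3) in the resistant coculture cells and 36.5 (35.8 to 37.2) in the resistant monoculture. In G1 cells the 4 levels lay within 28.2 to 30.2 CPM, and the intervals of all 4 overlapped. Both D cyclins together made up 91.5% of the members' UMIs in the sensitive monoculture and 87.9% to 89.5% elsewhere.

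CDK4, a kinase that the drug inhibits, stood at 108 (106 to 109.8) CPM in the sensitive monoculture, 132 (129.5 to 135) in the sensitive coculture cells, 109 (107 to 110.2) in the resistant coculture cells and 111 (110.0 to 112) in the resistant monoculture. The sensitive coculture cells stood above the other populations, which were close to one another. Among G1 cells it was 98.5 (96.4 to 101) CPM in the sensitive monoculture, 107 (104 to 110.2) in the sensitive coculture cells, 87.2 (85.3 to 89.1) in the resistant coculture cells and 88.6 (86.9 to 90.2) in the resistant monoculture. Both sensitive populations were above both resistant populations in G1, and the last pair did not differ beyond counting error.

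CDK4 was also read against sensitive cells phase by phase. Within the coculture library the resistant over sensitive ratio was 0.816 (0.785 to 0.848) in G1, 0.803 (0.770 to 0.839) in S and 0.791 (0.755 to 0.829) in G2M, where the median log2 ratio of all genes was -0.0014, -0.01 and 0.02. Between the monocultures it was 0.899 (0.874 to 0.925) in G1, 0.788 (0.742 to 0.838) in S and 0.803 (0.753 to 0.858) in G2M, while the ratio over all cells was 1.03 (1.01 to 1.06). The log2 ratio of CDK4 in G1 was -0.15 there, close to the median of all genes of -0.13, so the lower G1 level was about that of the typical gene. In S and G2M it was -0.34 and -0.32 beside medians of -0.08 and -0.06. CDK4 was higher in S and G2M cells, of which the resistant monoculture held the larger share.

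CDK6, the other kinase target of the drug, was close to absent. It had 18 UMIs in the sensitive monoculture, 8 in the sensitive coculture cells, 17 in the resistant coculture cells and 16 in the resistant monoculture, which is 0.187, 0.113, 0.0852 and 0.0591 CPM. All 18 UMIs of the sensitive monoculture were in G1 cells, which held 86.0% of that population's UMIs. CDK6 was under the minimum of 100 UMIs over a pair of populations and was left out of the counts of genes past a fold. No cell type that lacks these genes was in the libraries, so the level that free RNA alone would give was not measured.

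RB1, the pocket protein that CDK4/6 inactivate, was measured in every population. Its level was 20.6 (19.7 to 21.6) CPM in the sensitive monoculture, 23.2 (22.1 to 24.3) in the sensitive coculture cells, 21.1 (20.5 to 21.8) in the resistant coculture cells and 15.8 (15.3 to 16.2) in the resistant monoculture. The resistant monoculture was the low population, while the sensitive monoculture and the resistant coculture cells did not differ beyond counting error. The ratio of resistant to sensitive monoculture was 0.764 (0.724 to 0.806) over all cells, 0.692 (0.647 to 0.740) in G1, 0.687 (0.583 to 0.814) in S and 0.821 (0.694 to 0.978) in G2M. Resistant coculture cells over the resistant monoculture gave 1.34 (1.29 to 1.40), and 1.37 (1.29 to 1.47) in G1 cells. Within the coculture library the resistant over sensitive ratio was 0.912 (0.861 to 0.966).

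**Figure D1:**
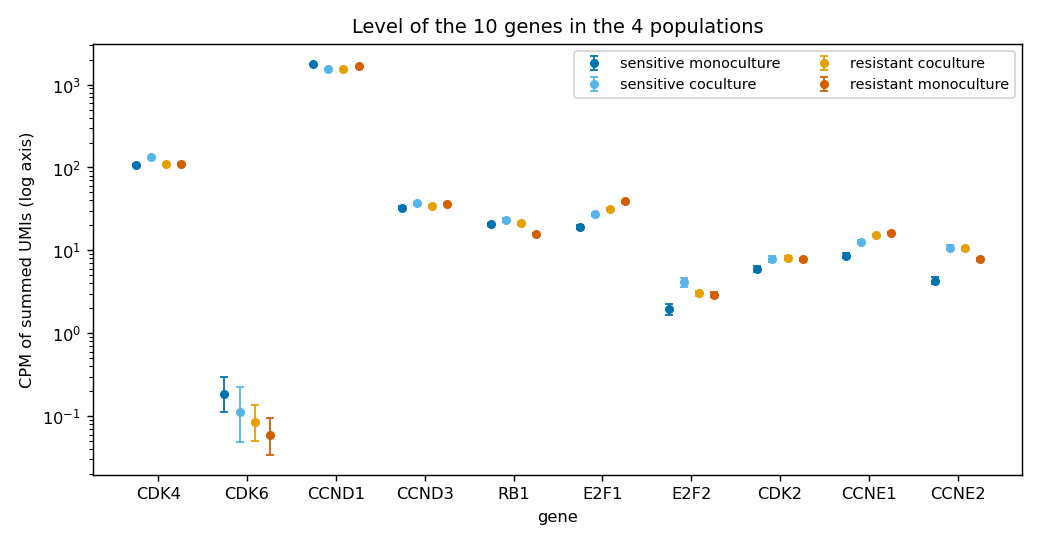
Level of each of the 10 genes in the 4 populations, as CPM of UMIs summed over all annotated cells on a log axis. Points are 1 library each and bars are exact Poisson 95% intervals. CCND1 lies between 1534 and 1786 CPM and CDK6 at or below 0.187 CPM, while E2F1 and CCNE1 are lowest in the sensitive monoculture and highest in the resistant monoculture.

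E2F1, the activator E2F that RB1 restrains, was lowest in the sensitive monoculture and highest in the resistant one. It stood at 19.1 (18.3 to 20) CPM in the sensitive monoculture, 27.1 (25.9 to 28.4) in the sensitive coculture cells, 31.3 (30.5 to 32.0) in the resistant coculture cells and 39.2 (38.5 to 40.0) in the resistant monoculture. No neighbours in this order had overlapping intervals. In G1 cells the order was the same over a narrower range, with 14.8 (14.0 to 15.6), 16.2 (14.9 to 17.5), 16.7 (15.9 to 17.5) and 19.6 (18.8 to 20.4) CPM. Each of the first 3 of these overlapped its neighbour, and the resistant monoculture stood above them.

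E2F2, another activator E2F, was a rarer RNA with another order. It had 1.94 (1.67 to 2.24) CPM in the sensitive monoculture, 4.10 (3.65 to 4.6) in the sensitive coculture cells, 3.03 (2.79 to 3.28) in the resistant coculture cells and 2.92 (2.72 to 3.13) in the resistant monoculture. The sensitive coculture cells were highest and the resistant populations did not differ from each other beyond counting error. In G1 cells it was 1.29 (1.06 to 1.56), 1.9 (1.48 to 2.40), 1.30 (1.08 to 1.56) and 1.11 (0.937 to 1.31) CPM, from 107, 70, 121 and 143 UMIs, and the sensitive coculture interval was clear of the resistant monoculture's alone. The G1 ratio of the sensitive populations, given below, still had an interval that excludes 1.

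CCNE1, an E cyclin that partners CDK2, was low in the sensitive monoculture. Its level was 8.65 (8.08 to 9.26) CPM there, 12.6 (11.8 to 13.5) in the sensitive coculture cells, 15.3 (14.8 to 15.9) in the resistant coculture cells and 16 (15.5 to 16.5) in the resistant monoculture. In G1 cells it was 6.81 (6.25 to 7.39) CPM, 8.84 (7.91 to 9.86), 11.6 (10.9 to 12.3) and 12.1 (11.5 to 12.7) in the same order. By these summed UMIs both resistant populations were above both sensitive ones in G1 cells and did not differ from each other beyond counting error.

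CCNE2, the other E cyclin, followed another order. It had 4.28 (3.88 to 4.71) CPM in the sensitive monoculture, 10.8 (10.1 to 11.6) in the sensitive coculture cells, 10.6 (10.1 to 11) in the resistant coculture cells and 7.86 (7.53 to 8.20) in the resistant monoculture. The coculture populations did not differ beyond counting error. In G1 cells CCNE2 was low in all of them, at 1.62 (1.36 to 1.92), 1.84 (1.43 to 2.34), 1.55 (1.31 to 1.82) and 0.995 (0.830 to 1.18) CPM, with the resistant monoculture lowest. CCNE2 is among the genes taken to be behind the deposited phase call, so its values by phase describe that call.

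CDK2, the partner of the E cyclins, had 5.96 (5.49 to 6.47) CPM in the sensitive monoculture and 7.80 to 8.09 CPM in the others, whose intervals overlapped. In G1 cells the values ran from 3.82 to 4.68 CPM, and all of these intervals overlapped. The sensitive monoculture was thus low over all cells but not among G1 cells.

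Shares of the members' own UMIs do not depend on scaling between libraries. The E cyclins made up 0.651% (0.615% to 0.688%) in the sensitive monoculture, 1.30% in the sensitive coculture cells, 1.47% in the resistant coculture cells and 1.24% in the resistant monoculture. Among G1 cells these shares were 0.424% (0.393% to 0.456%), 0.598% (0.541% to 0.660%), 0.770% and 0.711%. E2F1 and E2F2 together made up 1.06%, 1.73%, 1.94% and 2.20% over all cells and 0.808%, 1.01%, 1.06% and 1.13% in G1 cells. The sensitive monoculture held the lowest share of both pairs, over all cells and among G1 cells. CCND1 makes up most of the total and was highest in that population, which lowers the shares of other members there.

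The members differed widely between cell cycle phases. From G1 to S, 7 of the 9 counted members were past 1.5-fold higher in the sensitive monoculture, 7 in the sensitive coculture cells, 6 in the resistant coculture cells and 7 in the resistant monoculture, beside 8.1%, 6.77%, 6.21% and 6.59% of all genes with enough UMIs. None was past it lower in S, beside 9.81%, 3.13%, 3.0% and 3.35%. RB1 and CCND1 stayed within the fold in all 4 populations, and CCND3 was just under it in the resistant coculture cells, at 1.5 (1.42 to 1.58).

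CCNE2, E2F2 and E2F1, in that order, had the largest S over G1 ratios in every population. CCNE2 was 21.5-fold, 19.1-fold, 19.9-fold and 21.7-fold higher in S in the order of the populations above. It was 15.4-fold to 17.4-fold higher under the scanpy call without CCNE2 and E2F8. E2F2 gave a ratio of 7.48 (5.40 to 10.3) in the sensitive monoculture and ratios of 5.01 to 5.65 in the others. E2F1 gave ratios of 4.54 (4.07 to 5.07), 3.5 (3.16 to 3.88), 3.83 (3.60 to 4.06) and 3.92 (3.74 to 4.10).

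The S over G1 ratio of CCNE1 was largest in the sensitive monoculture. In S cells CCNE1 stood at 29.9 (25.9 to 34.4) CPM in the sensitive monoculture, 24.3 (22.0 to 26.8) in the sensitive coculture cells, 26.4 (25.1 to 27.8) in the resistant coculture cells and 26.1 (25 to 27.2) in the resistant monoculture. The ratio was 4.40 (3.72 to 5.18), 2.75 (2.37 to 3.19), 2.29 (2.11 to 2.48) and 2.17 (2.03 to 2.31). The interval of the sensitive monoculture did not overlap the others, although its S cells held 198 CCNE1 UMIs.

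CDK2 gave S over G1 ratios of 2.79 to 3.48 and G2M over G1 ratios of 2.09 to 2.94. The S over G1 ratios of CDK4 were 1.56 to 1.78 and those of CCND3 1.5 to 1.86. They were 1.10 to 1.20 for RB1 and 0.980 to 1.046 for CCND1, which was close to level from G1 to S. CCND1 was lower in G2M than in G1 in all 4 populations, at 0.817 (0.801 to 0.834) in the sensitive monoculture, 0.903 in the sensitive coculture cells and 0.973 in each resistant population.

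In G2M, E2F1, E2F2, CCNE1 and CCNE2 lay well under their S levels. CCNE1 in G2M cells was at ratios of 0.883 to 1.53 to its G1 level and E2F1 at 1.30 to 1.73. Members past 1.5-fold higher in G2M than in G1 were 7 of 9 in the sensitive monoculture, 3 in each coculture population and 4 in the resistant monoculture, beside 10.8%, 7.18%, 7.63% and 8.49% of all genes. None was past it lower, beside 11.7%, 4.38%, 3.6% and 3.43%. The sensitive monoculture had 190 G2M cells, and CCNE1, CDK4 and CCND3 were just past the fold there, at 1.53, 1.55 and 1.60. E2F2, CDK2 and CCNE2 were among the higher ones in every population, although E2F2 rests on 16 UMIs in G2M cells of the sensitive monoculture.

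**Figure D2:**
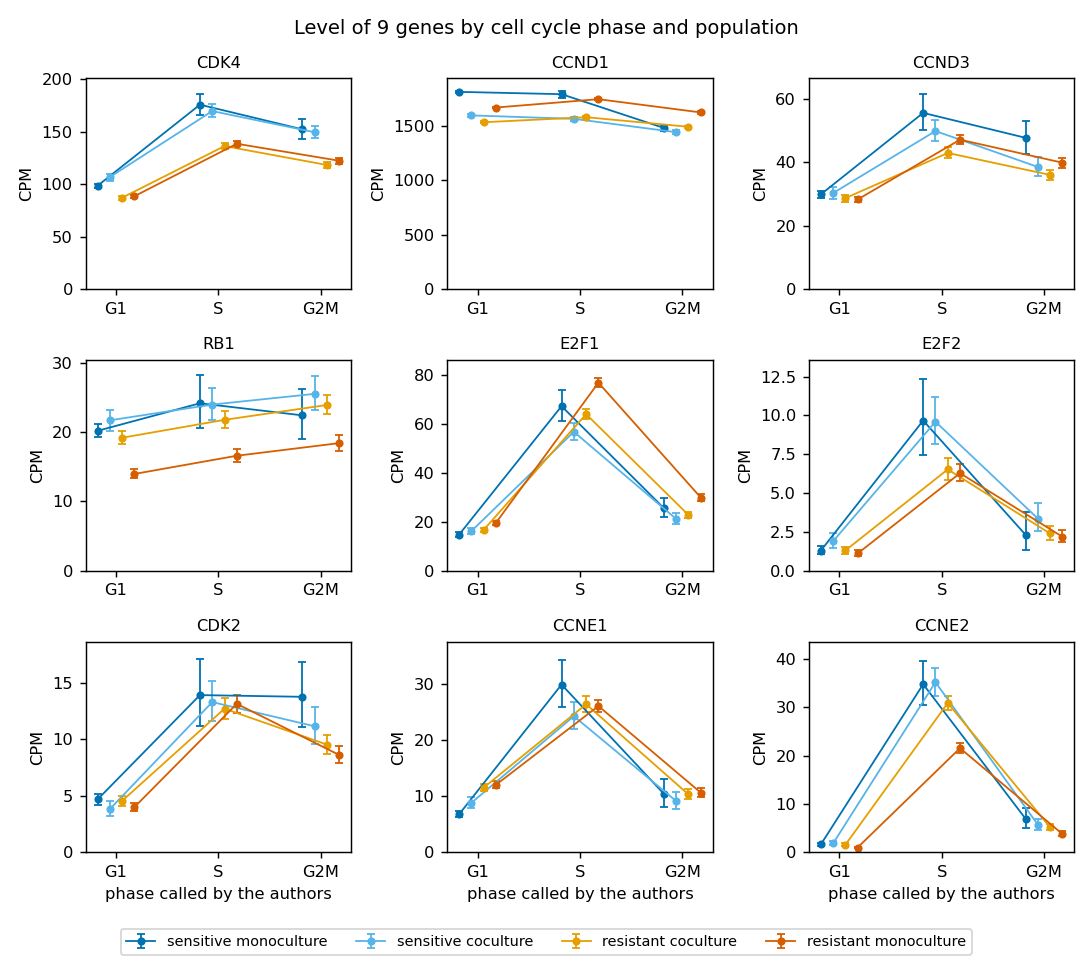
Level of 9 genes (CDK6 is left out for its few UMIs) by deposited phase, in CPM on linear axes that start at 0, with a line per population and exact Poisson 95% intervals. E2F1, E2F2, CCNE1 and CCNE2 peak in S, CCND1 is nearly level from G1 to S and lower in G2M than in G1, and RB1 of the resistant monoculture lies below the other populations in every phase.

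The comparison of sensitive cells with and without resistant neighbours asks whether the switch of drug-sensitive cells looks different in coculture. Over all cells, 2 of 9 counted members were past 1.5-fold higher in coculture, CCNE2 at 2.52 (2.24 to 2.85) and E2F2 at 2.11 (1.75 to 2.55), and none was past it lower. Of all 11668 genes with at least 100 UMIs, 7.63% were past the fold higher and 9.18% lower. CCNE1 followed at 1.46 (1.33 to 1.61), E2F1 at 1.42 (1.33 to 1.51), CDK2 at 1.32 (1.17 to 1.48) and CDK4 at 1.23 (1.19 to 1.26). CCND3 was at 1.12 (1.07 to 1.18) and RB1 at 1.12 (1.052 to 1.20), and CCND1 alone of the 9 was below 1. With cells of a mitochondrial share under 20%, the 2 members past the fold were again CCNE2 and E2F2, beside 6.16% of all genes higher and 9.9% lower in those cells. This limit kept 1452 of 3329 sensitive monoculture cells and 1332 of 2059 sensitive coculture cells.

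Among G1 cells none of the 9 members was past the fold between sensitive coculture and monoculture, beside 5.47% of all genes higher and 7.83% lower. CCNE1 was at 1.30 (1.13 to 1.49) and E2F2 at 1.47 (1.07 to 2.0), on 70 and 107 UMIs. E2F1 was at 1.10 (0.992 to 1.21), CCNE2 at 1.14 (0.838 to 1.54) and RB1 at 1.07 (0.987 to 1.17), intervals that include 1. CDK4 was at 1.08 (1.04 to 1.13) and CDK2 below 1 at 0.818 (0.669 to 0.994).

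In S cells the 9 ratios of the sensitive populations lay within 0.812 to 1.01, and none was past the fold, beside 3.79% of all genes higher and 4.46% lower. E2F1 and CCNE1 were below 1 there, at 0.844 (0.754 to 0.947) and 0.812 (0.684 to 0.966). In G2M cells the 8 members with enough UMIs lay within 0.807 to 1.14, and none was past the fold, beside 3.49% and 4.97%.

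The difference between the sensitive populations was split into a portion from the mix of phases and a portion within phases, by weighting with each population's share of UMIs per phase. For CCNE2 the difference of 6.52 CPM was 6.50 CPM from the mix and 0.028 CPM within phases. CCNE2 is among the genes behind the phase call, so its portions describe that call. The split was not repeated with phases called without it. For E2F1 it was 7.99 CPM, of which 9.30 from the mix and -1.32 within phases, and for CCNE1 it was 3.98 CPM, of which 3.65 and 0.333. CDK4 differed by 24.5 CPM, of which 20.2 and 4.35. CCND1 went the other way, with -235 CPM, of which -45.2 from the mix and -190.1 within phases. So for E2F1, E2F2, CCNE1 and CDK4 the larger net portion lay in how many UMIs came from S or G2M cells. For CCND1 and RB1 it lay within phases. No such reading is drawn for CCNE2. For CCNE1 and E2F1 the portion within phases is a net of opposite moves. From monoculture to coculture, CCNE1 rose from 6.81 to 8.84 CPM in G1 and fell from 29.9 to 24.3 in S. E2F1 went from 14.8 to 16.2 in G1 and from 67.1 to 56.7 in S. The patterns of E2F1, E2F2 and CCNE1 were close to those of genes behind the phase call, so their portions depend on that call too. With each phase given equal weight, no member was past 1.5-fold, beside 4.41% of all genes higher and 5.99% lower.

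**Figure D3:**
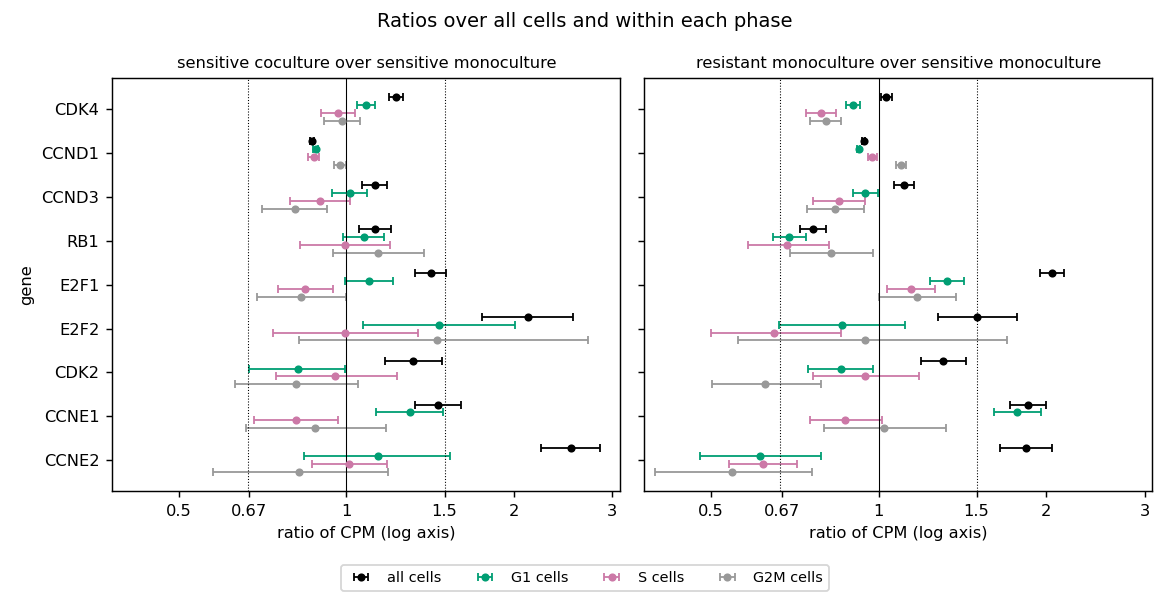
Ratio of CPM of 9 genes on a log axis, for sensitive coculture over sensitive monoculture (left) and resistant monoculture over sensitive monoculture (right), in all cells and in each phase, with exact 95% counting intervals and dotted lines at 1.5-fold. On the left CCNE2 is at 2.52 over all cells and at 1.14 in G1. On the right, in G1, CCNE1 is at 1.77 and CCNE2 at 0.614, the latter on 128 and 134 UMIs. CCNE2 is behind the phase call.

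The comparison of the monocultures sets the lineage selected in ribociclib beside its parent under the same dose. Over all cells 4 of 9 members were past the fold higher in resistant cells, beside 10.8% of 12338 genes, and none was past it lower, beside 17.8%. They were E2F1 at 2.05 (1.95 to 2.15), CCNE1 at 1.85 (1.72 to 2.0), CCNE2 at 1.84 (1.65 to 2.04) and E2F2 at 1.5 (1.28 to 1.77), which is just past it. CDK2 was at 1.31 (1.19 to 1.44) and CCND3 at 1.11 (1.07 to 1.16). TMM scaling moved the median log2 ratio of all genes in this comparison from -0.09 to 0.02, and the share of genes past the fold to 13.7% in each direction. With cells of a mitochondrial share under 20%, 2 members, E2F1 and CCNE1, were past it higher, beside 8.91% of all genes in those cells, and none lower, beside 17.6%. E2F2 was not past it when cells with a doublet score above 0.25, or with under 2 transgene UMIs, were left out, beside 10.8% and 11.3% of all genes past it higher. The mitochondrial limit kept 1452 of 3329 sensitive and 6067 of 7557 resistant monoculture cells. The mitochondrial share moved with the populations, and its part in these ratios was not tested further.

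In G1 cells of the monocultures CCNE1 was the 1 member past the fold higher, at 1.77 (1.61 to 1.95), beside 8.63% of all genes, and CCNE2 the 1 member past it lower, at 0.614 (0.478 to 0.788), beside 17.8%. With 9 members, 1 in each direction is not set apart from these shares. The CCNE2 ratio rests on 128 and 134 UMIs, and CCNE2 is among the genes behind the phase call. E2F1 was at 1.33 (1.24 to 1.42), RB1 at 0.692, CDK4 at 0.899 and CDK2 at 0.855 (0.748 to 0.979). The call without CCNE2 and E2F8 put 430 of 3781 of these resistant cells in S, against 86 of 2963 sensitive ones. The part of this in the G1 ratios was not tested. In S cells CCNE2 at 0.620 (0.540 to 0.714) and E2F2 at 0.649 (0.50 to 0.856) were past the fold lower, beside 12% of all genes, and none was past it higher, beside 7.25%. In G2M cells CCNE2 at 0.545 (0.398 to 0.761) and CDK2 at 0.626 (0.502 to 0.788) were past it lower, beside 11.1%, and none higher, beside 7.58%. E2F1 was above 1 in S too, at 1.14 (1.04 to 1.26).

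The split by phase, which depends on the phase call here too, differed between members. E2F1 was 20.1 CPM higher in the resistant monoculture, of which 14.4 CPM from the mix of phases and 5.64 within phases. CCNE1 was 7.36 CPM higher, of which 4.54 and 2.83. E2F1 and CCNE1 were the members, of the 9 counted, whose portions were both positive. The ratio of CCNE1 was 1.77 in G1 but 0.872 in S and 1.02 in G2M, the last pair with intervals that include 1. With equal weight of the phases its ratio went from 1.85 to 1.04, and that of E2F1 from 2.05 to 1.17. For CCNE2, which is behind the phase call, the mix gave 6.92 CPM and the phases -3.34. For RB1 the mix gave 1.28 and the phases -6.16. CDK4 had 21.5 CPM from the mix and -18.0 within phases, which left 3.54.

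**Figure D4:**
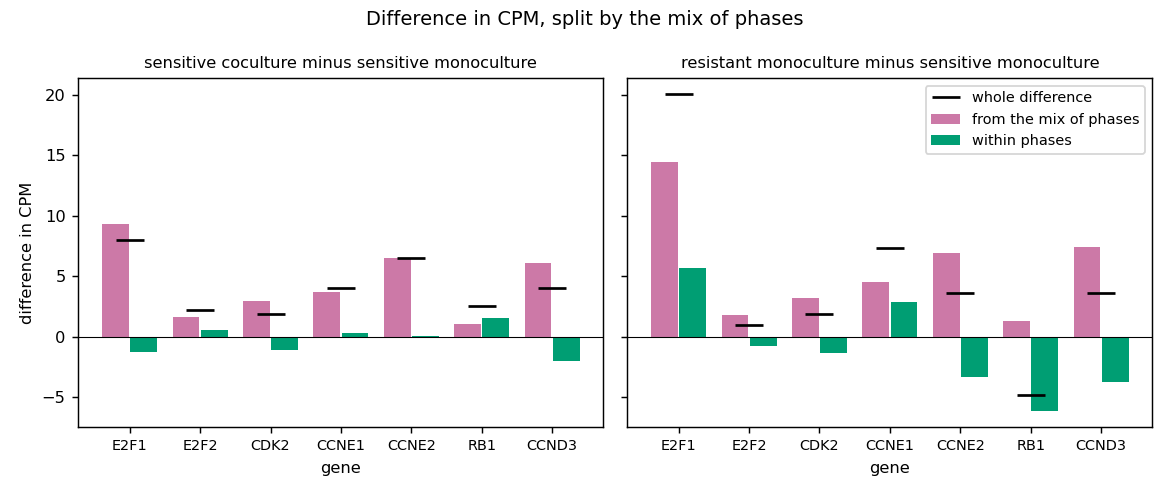
Difference in CPM between populations for 7 genes, split into the portion from the mix of phases and the portion within phases, with a mark for the whole difference. In sensitive cells, coculture less monoculture, the portion within phases is 0.028 CPM for CCNE2, which is behind the phase call, so its split describes that call. Between the monocultures, resistant less sensitive, the portion within phases is 5.64 CPM for E2F1 and -6.16 CPM for RB1.

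In resistant cells, coculture was compared with monoculture to see the same contrast in the other lineage. None of 9 members was past 1.5-fold over all cells, beside 2.91% of 12524 genes higher and 0.391% lower. CCNE2 was at 1.35 (1.27 to 1.43) and RB1 at 1.34, while E2F1 was at 0.797 (0.772 to 0.822). In G1 cells CCNE2 was past the fold higher at 1.56 (1.22 to 1.99), on 144 and 128 UMIs, beside 2.62% of all genes, and no member was past it lower, beside 0.372%. None was past it in S, beside 2.51% higher and 0.587% lower, or in G2M, beside 1.76% and 0.65%. CCNE2 was at 1.43 (1.34 to 1.53) in S. CCNE1 was at 0.958 and CDK4 at 0.978 over all cells, and E2F1 was below 1 in every phase, within 0.761 to 0.852. CDK2 was at 1.04 and E2F2 at 1.04, and TMM scaling put both just below 1 (log2 -0.018 and -0.020).

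Within the coculture library, where both lineages shared medium, day and preparation, none of 9 members was past the fold, beside 4.72% of 12099 genes higher in resistant cells and 6.44% lower. None was past it in G1, beside 4.45% and 6.25%, in S, beside 4.03% and 5.28%, or in G2M, beside 4.81% and 4.41%. CCNE1 was higher in resistant cells at 1.21 (1.13 to 1.31), and at 1.31 (1.15 to 1.48) in G1. E2F1 was at 1.15 (1.09 to 1.21), and at 1.03 (0.937 to 1.13) in G1. E2F2 was lower in resistant cells, at 0.737 (0.640 to 0.851), and within 0.680 to 0.713 in the 3 phases. CCNE2 was at 0.979 (0.901 to 1.06) and CCND1 at 0.989 (0.983 to 0.996). The 4 comparisons share populations, so their ratios are not independent of one another.

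The levels were also read as shares of cells with at least 1 UMI, after each cell was thinned to 5000 UMIs. For E2F1 the share was 8.65% (7.72% to 9.66%) in the sensitive monoculture, 12.1% (10.7% to 13.6%) in the sensitive coculture cells, 13.7% (12.9% to 14.6%) in the resistant coculture cells and 16% (15.2% to 16.8%) in the resistant monoculture. Without thinning these shares were 33.7%, 49.2%, 49.3% and 58.9%. The order of E2F1 by share was that of its CPM.

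For CCNE1 the thinned share was 3.48% (2.89% to 4.16%) in the sensitive monoculture and 6.75% (5.71% to 7.92%), 7.25% (6.62% to 7.92%) and 7.12% (6.55% to 7.72%) in the others. Without thinning it was 19.2%, 30.3%, 33.6% and 38.2%. Among G1 cells the thinned share was 2.97% (2.39% to 3.65%) against 5.18% to 5.60%, so the sensitive monoculture was below the other populations, which did not differ beyond counting error. The share of the sensitive coculture cells rests on 59 cells with a UMI, so its interval is wide, 3.97% to 6.64%. Thinned to 10000 UMIs, the G1 shares were 6.22% (5.37% to 7.15%), 8% (6.49% to 9.73%), 10.5% (9.45% to 11.6%) and 11.3% (10.3% to 12.3%), in the order of the CPM. At least 1 UMI of CCNE1, CCNE2, E2F1 or E2F2 was found in 13.7% of thinned sensitive monoculture cells, 21.6% of sensitive coculture cells, 23.5% of resistant coculture cells and 25% of resistant monoculture cells. In G1 cells this share was 11.7% (10.5% to 12.9%), 14.9% (12.9% to 17.1%), 14.5% (13.2% to 15.7%) and 15.4% (14.2% to 16.6%). In S cells it was 41.3% to 45.7%, which was far above the G1 shares in every population.

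CDK4 was detected in 38.8% of thinned sensitive monoculture cells and in 46.7%, 39.7% and 40.8% of the others, and CCND1 in 98.1% to 99.4%. RB1 was detected in 10.7% (9.69% to 11.8%), 11.3% (9.98% to 12.8%), 9.60% (8.88% to 10.4%) and 7.50% (6.92% to 8.12%). The resistant monoculture was the low population for RB1 on this measure as well.

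Cell-to-cell spread was read as the variance over the mean (Fano factor) in thinned G1 cells. In the sensitive monoculture it was 0.971 to 1.08 for CDK4, RB1, E2F1 and CCNE1. Their means were 0.0297 to 0.478 UMIs per cell, where this factor lies near 1 even if levels differ between cells. It was 3.75 for CCND1, whose mean was 8.89, so it does not compare the members. For CCND1 the factor was 2.35 to 2.59 in the other populations. The level of CCND1 also differed between the deposited clusters. In the sensitive monoculture it stood at 2035 CPM in cluster 4 (1945 cells, 4.52% in S or G2M) and at 1166 in cluster 8 (681 cells, 0.294%). E2F1 and CCNE1 were lower in cluster 8 too, at 8.58 and 4.32 CPM, against 17.4 and 7.19 in cluster 4. Clusters were made from the same cells and genes, so these values describe them and test nothing.

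Sensitive cells of cluster 3 in the monoculture (267 cells, 15% in S or G2M) had 12.8 (10.5 to 15.5) CPM of CCNE1, more than cluster 4, with E2F1 at 14.3 (11.8 to 17.1). Cluster 3 was the main cluster of the sensitive cells in coculture (1087 cells), where CCNE1 was at 10.6 (9.60 to 11.7) and E2F1 at 19.8 (18.4 to 21.3). Among clusters of resistant cells with at least 50 cells, CCND1 was highest in cluster 5, at 1680 CPM in coculture and 1901 in monoculture, and lowest in cluster 13, at 1106 and 1066.

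**Figure D5:**
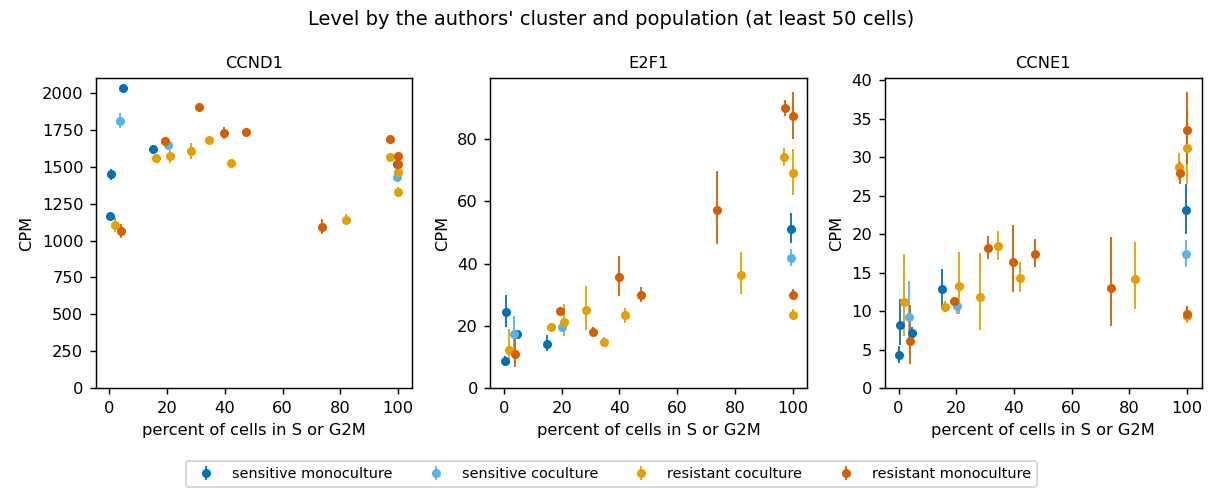
Level of CCND1, E2F1 and CCNE1 in the deposited clusters with at least 50 cells, as CPM against the percent of the cluster's cells in S or G2M; colours give the population and bars are exact Poisson 95% intervals. CCND1 spans 1166 to 2035 CPM among clusters of the sensitive monoculture with few cells in S or G2M, while among clusters of resistant cells near 100% E2F1 and CCNE1 are high in clusters 1 and 10 and lower in cluster 2, where CCNE1 is at 9.43 CPM in coculture and 9.69 in monoculture.

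Genes around the 10 members were read from 4 lists. On the CDK4/6 side (CCND2, CDK inhibitors, the CDK-activating kinase and others, 13 genes), 0 of 11 counted genes were past the fold higher in sensitive coculture over monoculture and 3 were lower, beside 7.63% and 9.18% of all genes. They were CDKN2B, an inhibitor of CDK4/6, at 0.483 (0.424 to 0.550), CDKN1A, the p21 inhibitor, at 0.571 (0.529 to 0.616), and CCNH, the cyclin of the activating kinase, at 0.600 (0.560 to 0.643). All 3 were past the fold lower in G1 cells as well, at 0.535, 0.583 and 0.598, beside 7.83% of all genes. In the monoculture comparison 6 of 12 counted genes were lower in resistant cells, beside 17.8% of all genes, CDKN2B at 0.272 (0.246 to 0.301) and CDKN1A at 0.387 (0.366 to 0.410) among them, and 1 was higher, beside 10.8%. That gene, CDKN1C, picked out after its value was known, was at 6.89. The median log2 ratio of this list was -0.23 and -0.45 in those comparisons, beside -0.06 and -0.09 over all genes.

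Among pocket proteins and E2F partners (10 genes), 3 were past the fold higher in sensitive coculture cells and 1 lower, beside 7.63% and 9.18% of all genes. The higher ones were E2F7 at 5.37 (3.90 to 7.54) on 190 and 48 UMIs, E2F8 at 3.48 (2.76 to 4.41), both repressor E2Fs, and RBL1, the p107 pocket protein, at 2.27 (1.99 to 2.60). The lower one, picked out after its value was known, was RBL2, the p130 pocket protein, at 0.655. Between the monocultures E2F8 was at 3.36, E2F7 at 2.97 and RBL1 at 2.37. In G1 cells of the sensitive populations RBL1 stood at 1.44 (1.16 to 1.78), and none of 8 counted genes of this list was past the fold, beside 5.47% of all genes higher and 7.83% lower. The median log2 ratio of the list was 0.41 over all cells and 0.27 in G1, beside -0.06 and -0.08 over all genes.

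On the CDK2 side (9 genes) 3 of 8 counted genes were past the fold higher in sensitive coculture cells and none lower, beside 7.63% and 9.18% of all genes, with a median log2 ratio of 0.38 beside -0.06. They were CCNA2, the cyclin that follows cyclin E, at 3.57 (3.25 to 3.93), CDC25A, the phosphatase that activates CDK2, at 1.74 (1.36 to 2.22), and SKP2, which marks p27 for destruction, at 1.70 (1.5 to 1.92). In G1 cells CCNA2 was at 4.12 (3.07 to 5.56), on 134 and 73 UMIs, and SKP2 at 1.40 (1.17 to 1.67). There 1 of 7 counted genes of this list was past the fold higher and none lower, beside 5.47% and 7.83% of all genes. The median log2 ratio of the list in G1 was 0.12, beside -0.08 over all genes.

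Of 25 E2F target genes, 24 were measured, 19 of them past the fold higher in sensitive coculture cells and 21 in the resistant monoculture over the sensitive one, with none lower in either. Of all genes 7.63% and 10.8% were higher in these comparisons, and 9.18% and 17.8% lower. The median log2 ratio of the targets was 0.87 and 0.94, beside -0.06 and -0.09. MYBL2, a transcription factor, was at 3.66 (3.47 to 3.86), DTL, a ubiquitin ligase adaptor, at 3.25 (2.90 to 3.65) and RRM2, a subunit of ribonucleotide reductase, at 3.13 (2.96 to 3.32) in sensitive coculture over monoculture. In G1 cells 8 of 23 were past the fold higher in the sensitive comparison and 7 of 24 in the monoculture one, beside 5.47% and 8.63% of all genes, with medians of 0.41 and 0.36 beside -0.08 and -0.13 over all genes. In S cells none was past it higher in either comparison, beside 3.79% and 7.25% of all genes, and 2 were lower in the monoculture one, beside 12%. In G2M cells none was past it higher either, beside 3.49% and 7.58%. There 2 of 23 were lower in the sensitive comparison and 3 of 24 in the monoculture one, beside 4.97% and 11.1%. Of the 24 measured, 14 are among those behind the phase call.

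MYBL2, which is not behind the phase call, stood at 8.15 CPM in G1 cells of the sensitive monoculture, 30.6 in those of the sensitive coculture cells, 32.6 in the resistant coculture cells and 34.1 in the resistant monoculture. Its G1 ratio was 3.76 (3.41 to 4.14) in sensitive coculture over monoculture, where E2F1 itself was at 1.10. The call without CCNE2 and E2F8 put 104 of 1138 of these coculture G1 cells in S, against 86 of 2963 in the monoculture. Their part in the MYBL2 ratio was not tested. In the resistant comparison no E2F target was past the fold in all cells, beside 2.91% of all genes higher and 0.391% lower, or in G1, beside 2.62% and 0.372%. Within the coculture RRM2 alone was past it over all cells, lower in resistant cells at 0.511 (0.491 to 0.533), beside 6.44% of all genes.

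The genes whose pattern over the 12 combinations of population and phase was most like each member are given as a description, since points share libraries and depth. Of these 17 genes, 6 are behind the phase call: CDC6, CLSPN, FEN1, MCM5, RFC2 and SLBP. CCNE2 is too, so their patterns by phase partly describe that call. By Pearson r of log2(CPM + 1), E2F1 was most like SLBP (0.985), CCNE1 like MCM5 (0.963), CCNE2 like PSMC3IP (0.994), E2F2 like CDC6 (0.973) and CDK2 like ANKLE2 (0.989). CDK4 was most like PNP (0.977), CCND3 like RFC2 (0.976), RB1 like KPNA3 (0.974) and CCND1 like NIT2 (0.918). The next gene was PSMG3 for E2F1, ACD for CCNE1, MCM3 for CCNE2 and E2F2, CLSPN for CDK2, RRP1B for CDK4, FEN1 for CCND3, STAU1 for RB1 and ZNRF1 for CCND1. Among the members, E2F1 and CCNE1 had an r of 0.95 and E2F2 and CCNE2 one of 0.978, while RB1 and CCNE1 had 0.041 and CCND1 and CDK4 -0.098.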

How the data were processed

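Per the labels and the study's methods, the authors made 10X 3′ libraries (1 per condition, 3 in all), counted UMIs with Cell Ranger 3.0.2 on GRCh37 and deposited raw counts per gene and barcode. They also deposited an annotation of 19237 cells made in Seurat, with percent mitochondrial values, S and G2M scores, phase, cluster and population. Their quality limits were 3000 to 7000 genes, 2000 to 60000 UMIs and under 30% mitochondrial UMIs. The methods also state removal of doublets by scrublet at a score of 0.25 and a minimum of 2 transgene UMIs. In both monocultures every barcode within the quality limits is annotated, so neither step shows there, and 8351 of 12346 such coculture barcodes are annotated. In the coculture, 1127 of 2059 sensitive and 3932 of 6292 resistant cells had 2 or more UMIs of their transgene. That minimum thus does not show in the coculture counts either, and other lineage labels there rest on fewer such UMIs. Own scrublet scores were above 0.25 in 1.65% of annotated sensitive monoculture cells, 3.90% of coculture cells and 3.35% of resistant monoculture cells, which were left out in an alternative. A further 11 annotation columns were not used.

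Members, lists and comparisons were chosen with earlier results of these data known. Rows without a symbol (0.523% to 0.591% of UMIs) were left out. UMIs were summed per population and phase as CPM with exact Poisson intervals. Ratios of CPM, without pseudocount, carry exact conditional binomial intervals and shares exact binomial ones, all at 95% and for counting error only. Genes with at least 100 UMIs over both populations were counted, and 1.5-fold either way was past the fold. A sum of 0 was set to 3 counts. No test was run. Python 3.11.15, numpy 2.4.6, scipy 1.17.1, pandas 2.3.3 and scanpy 1.11.5 were used, with TMM factors from edgeR 4.0.16 in R 4.3.3, and the steps were tested on simulated data. Positions are from GENCODE lifted to GRCh37. Alternatives were other folds, pseudocounts, scalings, UMI minimums, cell filters, depths and phase weights.

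The text names the 10 members, from each list the 3 with the largest absolute log2 ratio in sensitive coculture over monoculture, and for each member with at least 1000 UMIs the 2 genes of highest r, among those with a mean of at least 20 CPM. Any other gene is marked as picked out later. UHRF1 was not analysed here.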

Additional observations from a re-analysis of the deposited data

How the results depend on the processing

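Depth and the lack of replicates limit these results: E2F2 and CCNE2 in G1 rest on 68 to 144 UMIs, and the intervals do not cover variation between cultures. No paired analysis was possible because each condition had 1 library, and leaving out a replicate was not possible for the same reason. Beside each count of members past the fold stands the share of all genes past it in the same direction. In sensitive coculture over monoculture (2 of 9 members higher), the lower of the other folds gave 5 (16.2%), a pseudocount of 10 CPM 0 (1.83%), a minimum of 500 UMIs 1 (5.72%), G1 cells 0 (5.47%), equal weight of cells 4 (7.85%) and equal phase weight, an alternative chosen after seeing the data, 0 (4.41%), all counts of higher members. Thinning to 5000 UMIs also gave 2 (6.17%), CCNE1 and CCNE2, and E2F2, at a log2 ratio of 0.87, left the count because it fell under the minimum of 100 UMIs. In resistant coculture over monoculture (0), a lower fold gave 3, of which 2 were higher (13.9%) and 1 lower (4.06%), and G1 cells gave 1 higher (2.62%). A minimum of 1 UMI, which let CDK6 be counted, added 1 lower member in the sensitive comparison (13.8%) and 1 between the monocultures (29.1%). Between the monocultures (4 higher), a fold of 2 gave 1 (5.33%) and a pseudocount of 10 CPM 1 (2.8%). A pseudocount of 1 CPM gave 3 (6.99%) and a mitochondrial share under 20% 2 (8.91%), all of them higher. Thinning to 5000 UMIs gave 5 higher (9.34%), and the lower fold 5 higher (19.7%) and 1 lower (31.5%). G1 cells gave 2 there, 1 higher (8.63%) and 1 lower (17.8%), and equal phase weight 1, CCNE2, which was lower (14.9%). Within the coculture (0), a lower fold gave 1 (14.8%) and a mitochondrial share under 20% 1 (6.37%), E2F2, lower in resistant cells in both. Under equal phase weight the log2 ratio of CCNE2 turned to -0.020 in the sensitive comparison. Between the monocultures E2F2 and CCNE2 turned to -0.22 and -0.70 in G1 cells and to -0.47 and -0.72 under equal phase weight. In G1 cells and under equal phase weight fewer or other cells carry the value by construction; the cause of the other moves was not tested. Of 460 log2 ratios of members under alternatives, 319 stayed within their counting interval, 136 moved beyond it and 5, those just given, turned sign from a reported value past 1.5-fold. A total of 42 turned sign, the rest from a reported value within the fold or, for CDK6, from one on few UMIs. Under equal phase weight, in the sensitive comparison, E2F1 went from 0.50 to -0.19, CCNE1 from 0.55 to -0.16, CDK2 from 0.40 to -0.19, CCND3 from 0.17 to -0.17 and CDK4 from 0.30 to -0.0019. Between the monocultures CDK2, CDK4 and CCND3 fell below 0 both in G1 cells and under equal phase weight. CDK2 in G1 cells of the sensitive comparison was at -0.29. Apart from CDK6, the remaining turns were of reported values within 0.1 of 0 on the log2 scale, CCND1, CDK2, E2F2 and CCNE2 among them. Under the phase call without CCNE2 and E2F8, 67 of 80 phase ratios stayed within it and 13 moved. Shares of cells moved with depth in 85 of 88 cases. Subtracting 10% of the resistant profile from the sensitive coculture cells moved no log2 ratio by more than 0.042.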
